A study of Mus musculus with 12 samples.

Results

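The subcutaneous white fat pad (scWAT) of C2orf74 knockout mice was compared with that of wild-type mice, using the 6 of 12 libraries of the series that were labelled as subcutaneous adipose tissue. The 3 C2orf74 KO libraries came from mice coded C7, C34 and C695, and the 3 WT libraries from mice C75, C85 and C99. All 6 mice had eaten a high-fat diet for 12 weeks, started at 8 weeks of age, and the same 6 codes label the epididymal (epWAT) libraries of the series, read here as the same animals. The labels do not give the sex, the strain or the design of the knockout allele. White adipocytes store triglyceride in 1 large droplet and secrete hormones such as leptin, whose transcript rises as fat cells enlarge and which lowers food intake through the hypothalamus. The pad also holds progenitors, macrophages, vessels and nerves, and the subcutaneous pad of a mouse encloses a lymph node. Because whole tissue was sequenced, fewer cells of a type and less RNA per cell cannot be told apart.

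RNA levels are in FPKM, a read count scaled by transcript length and library size, so that levels of different genes can be set side by side. From these values 16828567 to 17470260 reads were recovered per KO library, and 16192571 to 18311561 per WT library. The adipocyte hormone gene Adipoq stood at 1718 to 1995 FPKM in KO libraries and 1963 to 2098 FPKM in WT libraries, so the defining transcript of white adipocytes was abundant in every library. Of the 3 KO libraries, 2 stood apart. The library of KO C695 held lymphocyte and lymph node transcripts: the B cell receptor subunit gene Cd79a was at 75.8 FPKM there against 2.28 FPKM in C7, 0.403 FPKM in C34 and 0.712 to 0.848 FPKM in WT libraries. All 18 detected T cell markers were highest in C695, with a summed level of 279.7 FPKM against 13.8 and 6.25 FPKM in the other KO libraries and 18.3 to 26.9 FPKM in WT libraries. Glycam1, which lymph node high endothelium makes, was at 45.7 FPKM in C695, 0.094 FPKM in C34 and 0 in the other 4 libraries. The whole list of lymph node stroma and high endothelium genes was less confined to C695. It summed to 305.7 FPKM in C695, 85.5 FPKM in C34 and 23.6 FPKM in C7, against 1.96 to 16.6 FPKM in WT libraries. The library of KO C34 had the highest level of 18 of 23 immediate early and heat shock genes, and of 12 of 13 detected skeletal muscle markers. Its clock genes also differed: the clock output gene Dbp was at 1.26 FPKM in C34 but 34.8 and 29.5 FPKM in KO C7 and C695, and 20.4 to 25.2 FPKM in WT libraries, while the core clock gene Arntl was at 3.99 FPKM in C34 and at most 0.982 FPKM elsewhere. Values without C34 or C695 are given beside some of the list medians and genes that change with those libraries.

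**Figure D1:**
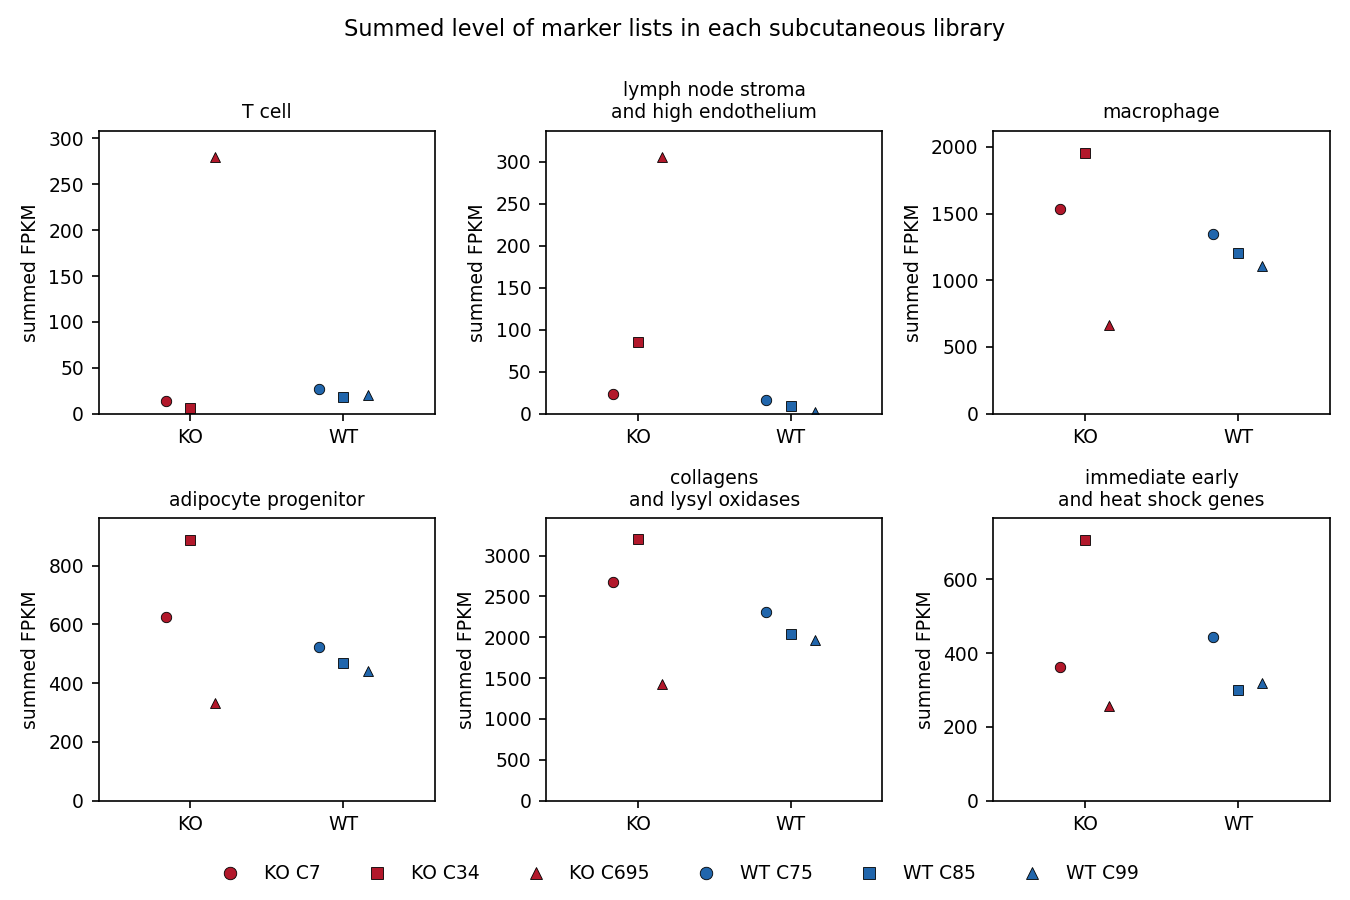
Summed FPKM of 6 gene lists (vertical axes) in the KO libraries (red) and WT libraries (blue), 1 point for each mouse. KO C695 is highest for T cell and lymph node genes and lowest for macrophage, progenitor and collagen genes, where KO C34 is highest.

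The targeted gene was low in every library. Mouse 1700093K21Rik, the ortholog of human C2orf74, lies on the minus strand of chromosome 11 (GRCm38 positions 23516203 to 23521155). It was at 0.0592 FPKM in KO C7 and at 0 in KO C34 and C695, against 0.215, 0.272 and 0.084 FPKM in WT C75, C85 and C99. These levels correspond to 2, 0 and 0 reads in the KO libraries and 7, 10 and 3 reads in the WT libraries. The groups did not overlap, but 3 against 3 libraries cannot give a two-sided exact permutation p below 0.1, which was the value obtained. The KO to WT ratio of reads was 0.102 (95% exact interval 0.0115 to 0.419, counting error only).

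Leptin, the oxytocin receptor and the imprinted gene Mest were among 34 genes that fell in KO scWAT, and 6 genes rose. A gene was called where limma, with Benjamini-Hochberg adjustment over all 12614 genes tested, gave an adjusted p under 0.05. The 40 calls are 0.317% of the genes tested, with 0.0476% called higher and 0.27% called lower. KO and WT levels did not overlap for 24.5% of genes tested (11.1% higher and 13.4% lower in KO), 52.2% of genes had a difference above 0, and the median gene differed by 0.011 on the log2(FPKM + 1) scale, which understates the difference of low genes. The calls depend on single libraries: 142 were made without KO C695, but only 1 without KO C34 or WT C75 and 0 without KO C7, WT C85 or WT C99. The p-values measure the spread between the mice of these 2 small groups.

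The leptin gene, the oxytocin receptor gene and Tph2 were among the genes that fell. As lists, 17 adipokine genes had a median of -0.008 with 1 called lower, and 19 hormone and neuropeptide receptor genes had a median of 0.07, with 13 higher values and 1 called lower. Lep, the leptin gene (plus strand of chromosome 6, 29060220 to 29073877), had 648, 549 and 772 FPKM in KO C7, C34 and C695, against 1579, 1747 and 1705 FPKM in WT C75, C85 and C99. Every KO library was at less than the lowest WT library, a log2 difference of -1.37 ± 0.14 (SE, 3 libraries per group; limma adjusted p = 0.0439). Lep lost its call with quantile scaling and with no filter on low values (limma adjusted p = 0.0591 and 0.128). Oxtr, which encodes the oxytocin receptor (minus strand of chromosome 6, 112473683 to 112489943), was at 6.64, 5.48 and 6.41 FPKM in KO libraries and 50.8, 33.6 and 36.4 FPKM in WT libraries. The 3 KO values were close together and far below the WT values, and the difference was -2.50 ± 0.16 (limma adjusted p = 0.0256). Tph2, a tryptophan hydroxylase that starts serotonin synthesis and is best known from brain, had 3.41, 3.63 and 2.27 FPKM in KO and 29.6, 29.5 and 15.9 FPKM in WT libraries, a difference of -2.63 ± 0.27 (limma adjusted p = 0.0418). The WT library C99 lay well below the other 2 WT libraries, and this difference has the largest SE of the 40 called genes. Tph2 was also low in KO epididymal pads, at 3.59, 1.14 and 1.67 FPKM against 29.9, 33.0 and 41.3 FPKM in WT epWAT, and the difference between depots did not pass (adjusted p = 0.205).

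**Figure D2:**
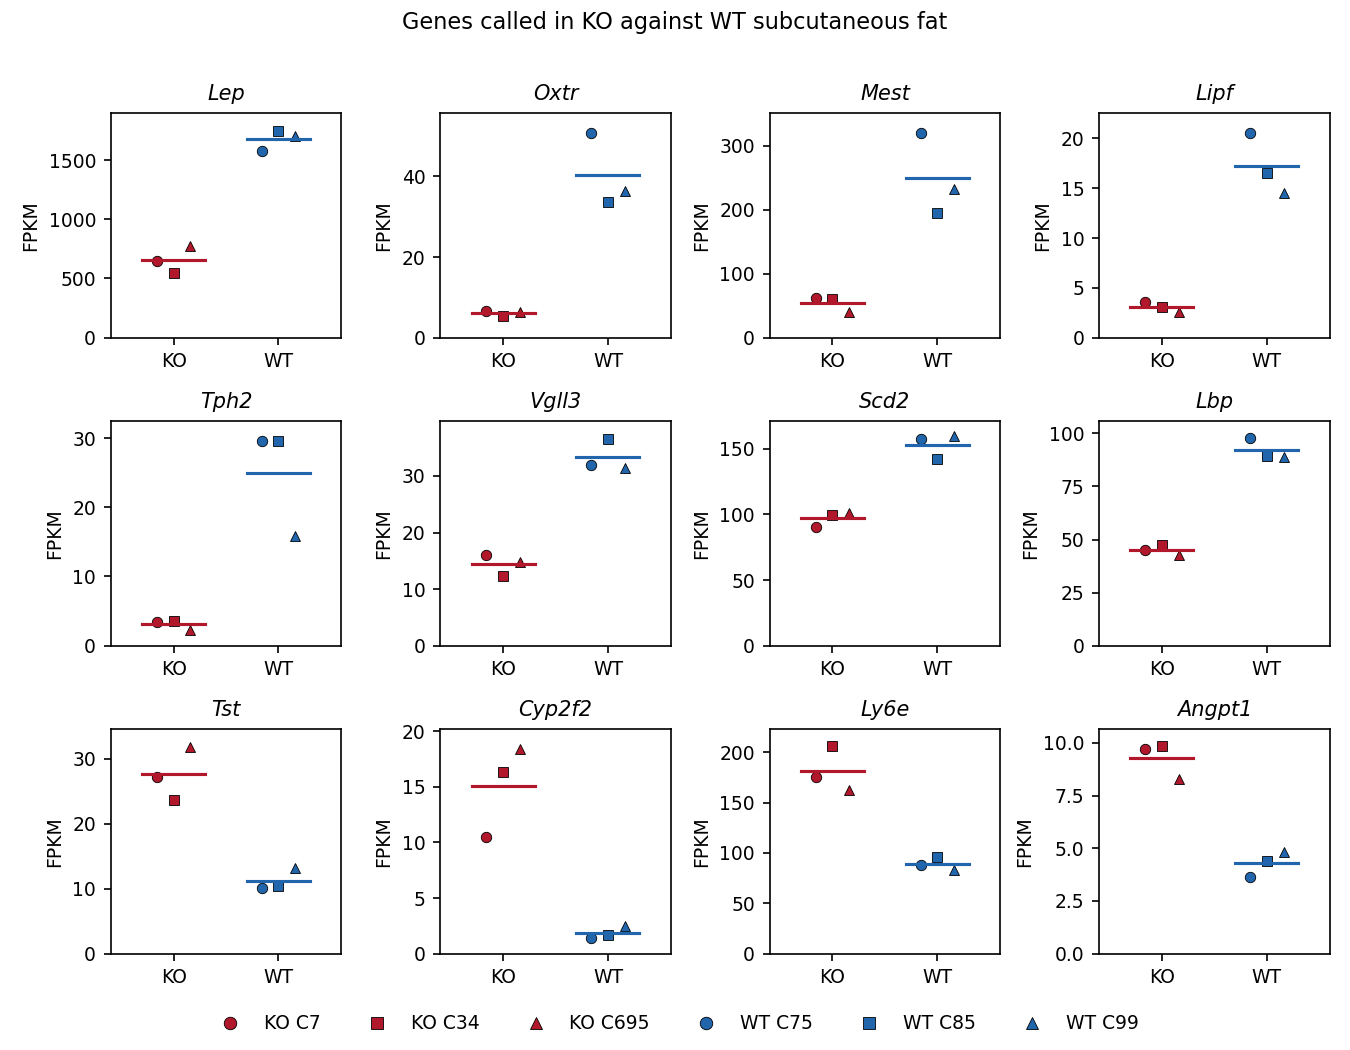
FPKM (vertical axes, from 0) of 12 genes called in scWAT, with 1 point per mouse for KO (red) and WT (blue) and a bar at each group mean. In every panel the 3 KO points lie all below or all above the 3 WT points, for example 549 to 772 FPKM of Lep in KO and 1579 to 1747 FPKM in WT.

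The promoter of Lep is shown because its known C/EBP site, where the adipocyte factor C/EBP alpha binds, lies in the window. The 250 bases before the RefSeq start (GRCm38.p6, chr6:29059971-29060220, plus strand) hold the palindrome TTGCGCAA, in capitals, 55 to 48 bases before the start. It occurs on either strand in 0.185% of all 27025 genes with such a window, and in 1 of the 26 called genes that have one. The gene of C/EBP alpha itself, Cebpa, was at 304, 279 and 384 FPKM in KO and 288, 298 and 338 FPKM in WT libraries, overlapping groups with a difference of 0.05 ± 0.14 (limma adjusted p = 0.879).
Lep: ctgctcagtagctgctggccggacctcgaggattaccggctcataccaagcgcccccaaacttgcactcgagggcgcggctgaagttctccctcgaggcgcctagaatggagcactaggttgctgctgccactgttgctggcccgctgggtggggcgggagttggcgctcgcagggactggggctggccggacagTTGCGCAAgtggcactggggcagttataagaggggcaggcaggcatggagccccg

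Most listed genes that mark growth of the fat pad, together with genes of caveolae, had lower values in KO. Of 13 such genes tested, 12 had lower values in KO and 1, Pacsin3, a higher one. The groups did not overlap for 10 of the lower ones, and 3 were called. Of all genes tested, 13.4% were lower without overlap. The list had a median log2 difference of -0.46, against 0.011 for all genes. It was -0.65 without KO C695 and -0.48 without KO C34. Like the other lists, this list was drawn up with earlier results of these data known. Mest, an imprinted gene expressed from the paternal copy and linked to adipocyte enlargement in mice (plus strand of chromosome 6, 30723547 to 30748465), had 61.4, 60.2 and 40.8 FPKM in KO and 320.5, 195.5 and 232 FPKM in WT libraries. Its difference was -2.18 ± 0.23 (limma adjusted p = 0.0444). Copg2, a subunit gene of the coat of transport vesicles, overlaps Mest by 912 bp on the opposite strand. Copg2 had 16.3, 14.2 and 14.8 FPKM in KO and 43.8, 34.9 and 36.5 FPKM in WT libraries (-1.29 ± 0.11; limma adjusted p = 0.0325). No strand setting is given in the sources used here, so reads of the overlap cannot be assigned to 1 of the 2 genes. Trp53inp2, which acts in autophagy and as a coactivator, was more abundant, at 202, 194 and 226 FPKM in KO and 443, 398 and 417 FPKM in WT libraries, a difference of -1.01 ± 0.09 (limma adjusted p = 0.0358). Vgll3, a cofactor of TEAD transcription factors, had 16.0, 12.2 and 14.9 FPKM in KO and 31.9, 36.6 and 31.3 FPKM in WT libraries (-1.16 ± 0.12; limma adjusted p = 0.0418). Another TEAD cofactor, Wwtr1 (TAZ), also fell, by 0.58 (adjusted p = 0.0474). The caveola genes did not pass singly: Cavin1 had 477, 501 and 467 FPKM in KO and 665, 703 and 612 FPKM in WT libraries (-0.45, limma adjusted p = 0.094), and Cav1 -0.31 (adjusted p = 0.155). Neither pair of groups overlapped. The Wnt inhibitor gene Sfrp5 had 126, 92.9 and 99.1 FPKM in KO and 246, 285 and 178 FPKM in WT libraries, also without overlap (-1.13, limma adjusted p = 0.0866).

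Most sterol genes had lower values in KO. Of 21 genes for cholesterol synthesis and uptake tested, 19 had lower values in KO, without overlap of the groups for 11, and 1 was called. Among all genes tested, 47.8% had a difference below 0, 13.4% were lower without overlap and 0.27% were called lower. The median difference of the list was -0.36, against 0.011 for all genes. Hsd17b7 and Nsdhl, which act on the sterol ring, had -0.68 each (adjusted p = 0.0935 and 0.097), and the mevalonate kinase gene Mvk had -0.41 (adjusted p = 0.107). The summed level of the list was 201.9 to 256.8 FPKM in KO libraries and 297.6 to 346.9 FPKM in WT libraries. The median was -0.44 without KO C695, -0.28 without KO C7 and -0.38 without KO C34. Scd2, a stearoyl-CoA desaturase outside this list, was lower as well, with 90.3, 99.9 and 101 FPKM in KO and 158, 143 and 160 FPKM in WT libraries (-0.65, limma adjusted p = 0.0494). Fatty acid and triglyceride synthesis genes as a list had a median of 0.04, and Fasn differed by 0.06 (limma adjusted p = 0.815).

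Sterol synthesis genes are known to be driven by SREBP factors at sites such as TCACNCCAC, and a sterol gene promoter is shown for that reason. The motif was searched on both strands in the 250 bases before the start. It was found for 1 of 15 listed sterol genes that have a window, Hmgcs1, against 1.22% of all genes, and the capitals in Hmgcs1 (GRCm38.p6, chr13:119690101-119690350, plus strand) mark it. Hmgcs1, which encodes a cytosolic synthase of the mevalonate pathway, had 42.5, 55.3 and 56.9 FPKM in KO and 96.2, 56.0 and 71.0 FPKM in WT libraries. The groups overlapped and the gene was not called (-0.50 ± 0.21; limma adjusted p = 0.309).
Hmgcs1: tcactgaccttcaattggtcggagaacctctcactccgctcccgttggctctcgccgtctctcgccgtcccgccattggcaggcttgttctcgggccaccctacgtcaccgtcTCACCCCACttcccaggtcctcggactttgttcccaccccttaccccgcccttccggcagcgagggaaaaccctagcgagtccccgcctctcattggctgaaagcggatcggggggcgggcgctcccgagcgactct

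Interferon-stimulated genes tended to higher values in KO. Of 34 tested, 31 were higher and 3 lower, 17 of them higher without overlap. Among all genes tested, 52.2% had a difference above 0, 11.1% were higher without overlap and 0.0476% were called higher. The median of the interferon list was 0.48, against 0.011 for all genes. It was 0.50 without KO C695 and 0.27 without KO C34, the library in which 25 of 36 members were highest. Ly6e, an interferon-inducible surface protein gene (plus strand of chromosome 15, 74955051 to 74959905), was the member called in 6 libraries. Its levels were 176, 206 and 163 FPKM in KO and 87.7, 96.2 and 82.7 FPKM in WT libraries, each KO library above every WT library (1.02 ± 0.11; limma adjusted p = 0.0444). Irf7, a transcription factor that raises interferon output, had 20.1, 28.2 and 13.8 FPKM in KO and 7.56, 9.26 and 8.42 FPKM in WT libraries (1.15 ± 0.24; limma adjusted p = 0.11), and was called without KO C695 (1.40 ± 0.16; adjusted p = 0.0408). Bst2, tetherin, had 92.0, 119 and 70.4 FPKM in KO and 60.9, 64.3 and 60.4 FPKM in WT libraries (0.56, limma adjusted p = 0.207). Isg15, a ubiquitin-like modifier, had 11.6, 30.9 and 10.4 FPKM in KO and 10.5, 11.5 and 9.74 FPKM in WT libraries: only KO C34 lay apart, and the groups overlapped (0.53, limma adjusted p = 0.545). Whether lymphocyte transcripts in C695 or the stress transcripts in C34 contribute to these values was not tested.

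The interferon-stimulated response element, searched on both strands as GAAA and GAAA spaced by 2 bases, is printed in capitals for 3 members because many of the list hold it. It was present in the 250 bases before the start of 13 of 26 members with a window (50%), against 3.46% of all genes, a share that says nothing of its use in these pads. Bst2 lies at chr8:71537473-71537722, minus strand, Gbp3 at chr3:142559794-142560043, plus strand, and Trim30a at chr7:104465194-104465443, minus strand, all in GRCm38.p6. Bst2 has 2 overlapping matches, and Gbp3 also has 2. Gbp3 differed by 0.42 and Trim30a by 0.64 (limma adjusted p = 0.196 and 0.207), with no overlap of the groups for either gene.
Bst2: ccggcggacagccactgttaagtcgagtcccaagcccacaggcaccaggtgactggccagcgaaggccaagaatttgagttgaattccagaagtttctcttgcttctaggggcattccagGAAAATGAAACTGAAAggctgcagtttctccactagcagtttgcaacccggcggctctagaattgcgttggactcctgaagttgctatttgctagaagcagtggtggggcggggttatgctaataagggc
Gbp3: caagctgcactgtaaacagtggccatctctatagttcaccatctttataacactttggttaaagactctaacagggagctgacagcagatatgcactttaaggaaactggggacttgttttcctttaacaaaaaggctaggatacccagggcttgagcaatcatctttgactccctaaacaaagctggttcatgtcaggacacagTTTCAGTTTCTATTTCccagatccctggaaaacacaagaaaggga
Trim30a: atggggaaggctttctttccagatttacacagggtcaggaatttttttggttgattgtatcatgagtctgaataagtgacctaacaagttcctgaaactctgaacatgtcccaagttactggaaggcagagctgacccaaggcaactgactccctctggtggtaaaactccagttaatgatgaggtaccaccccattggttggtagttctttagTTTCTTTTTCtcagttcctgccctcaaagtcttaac

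The 5 other genes that rose serve metabolism and signalling. Cyp2f2, a cytochrome P450 gene (plus strand of chromosome 7, 27119909 to 27133660), had 10.4, 16.3 and 18.4 FPKM in KO and 1.37, 1.65 and 2.44 FPKM in WT libraries. It had the largest rise of the called genes, 2.49 ± 0.23 (limma adjusted p = 0.0358). Tst, the mitochondrial thiosulfate sulfurtransferase that takes part in sulfide disposal (minus strand of chromosome 15, 78399556 to 78405907), had 27.3, 23.7 and 31.9 FPKM in KO and 10.1, 10.5 and 13.1 FPKM in WT libraries (1.23 ± 0.14; limma adjusted p = 0.0474). Angpt1, a ligand of the endothelial receptor Tek, had 9.73, 9.84 and 8.27 FPKM in KO and 3.63, 4.39 and 4.83 FPKM in WT libraries (0.96 ± 0.12; limma adjusted p = 0.0474). Angpt1 lost its call with upper-quartile and with quantile scaling (limma adjusted p = 0.055 and 0.0719). Rprml and Peli1, a ubiquitin ligase of Toll-like receptor signalling, rose by 1.22 and 0.76 (adjusted p = 0.0474 and 0.0444). The P450 list had a median of 0.05, and 13 of 21 angiogenic genes had lower values, among them the apelin receptor gene Aplnr at -1.05 (adjusted p = 0.112). Blood endothelial markers were lower in 16 of 18 genes tested, with a median of -0.27. It was -0.15 without KO C34 and -0.38 without KO C695.

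Among genes of lipid storage and defence, Lipf, a gastric-type lipase gene (plus strand of chromosome 19, 33961187 to 33976810), had 3.62, 3.04 and 2.56 FPKM in KO and 20.6, 16.5 and 14.5 FPKM in WT libraries (-2.15 ± 0.15; limma adjusted p = 0.0256). With all 12 libraries fitted together, Lipf lost its call. Its limma adjusted p was 0.0611 with no replicate block and 0.0584 with the mouse as a random effect. The same held for Tst (0.0542 and 0.0508), Peli1 (0.0621 and 0.0629), Tnfrsf21 (0.0529 and 0.0517) and Tpi-rs11 (0.115 and 0.119). Lbp, which encodes the lipopolysaccharide-binding protein, had 45.2, 47.3 and 42.6 FPKM in KO and 98, 89.6 and 88.9 FPKM in WT libraries, a difference of -1.02 ± 0.07 (limma adjusted p = 0.0256). Of 14 acute phase and lipopolysaccharide genes tested, 8 had higher and 6 lower values, with a median of 0.17 that turned to -0.15 without KO C34 and was 0.44 without KO C695, and Lbp was the 1 member called. The complement inhibitor gene Cd59a fell by 0.84 and Duoxa1, which matures an oxidase, by 1.08 (adjusted p = 0.046 and 0.0358). Lpgat1, an acyltransferase gene, and the heme transporter gene Slc48a1 fell by 0.87 and 0.74 (adjusted p = 0.0499 and 0.0474). Other genes that fell, by 0.50 to 1.81, were Dmrt2, Dact2, Ncan, Kcnj14, Adamts5, Tnfrsf21, Nexn, Pea15a, Jpt2, Rtn2, Clmp, Hist1h2bc, Tpi-rs11 and Ear2. Ear2, Hist1h2bc and Tpi-rs11 belong to families of near-identical copies, so their own levels are uncertain. A further 4 calls were genes known only by a clone or model name: 1700047G03Rik, Gm13709, AA914427 and C130074G19Rik, at -1.93, -1.71, -1.13 and -0.86.

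**Figure D3:**
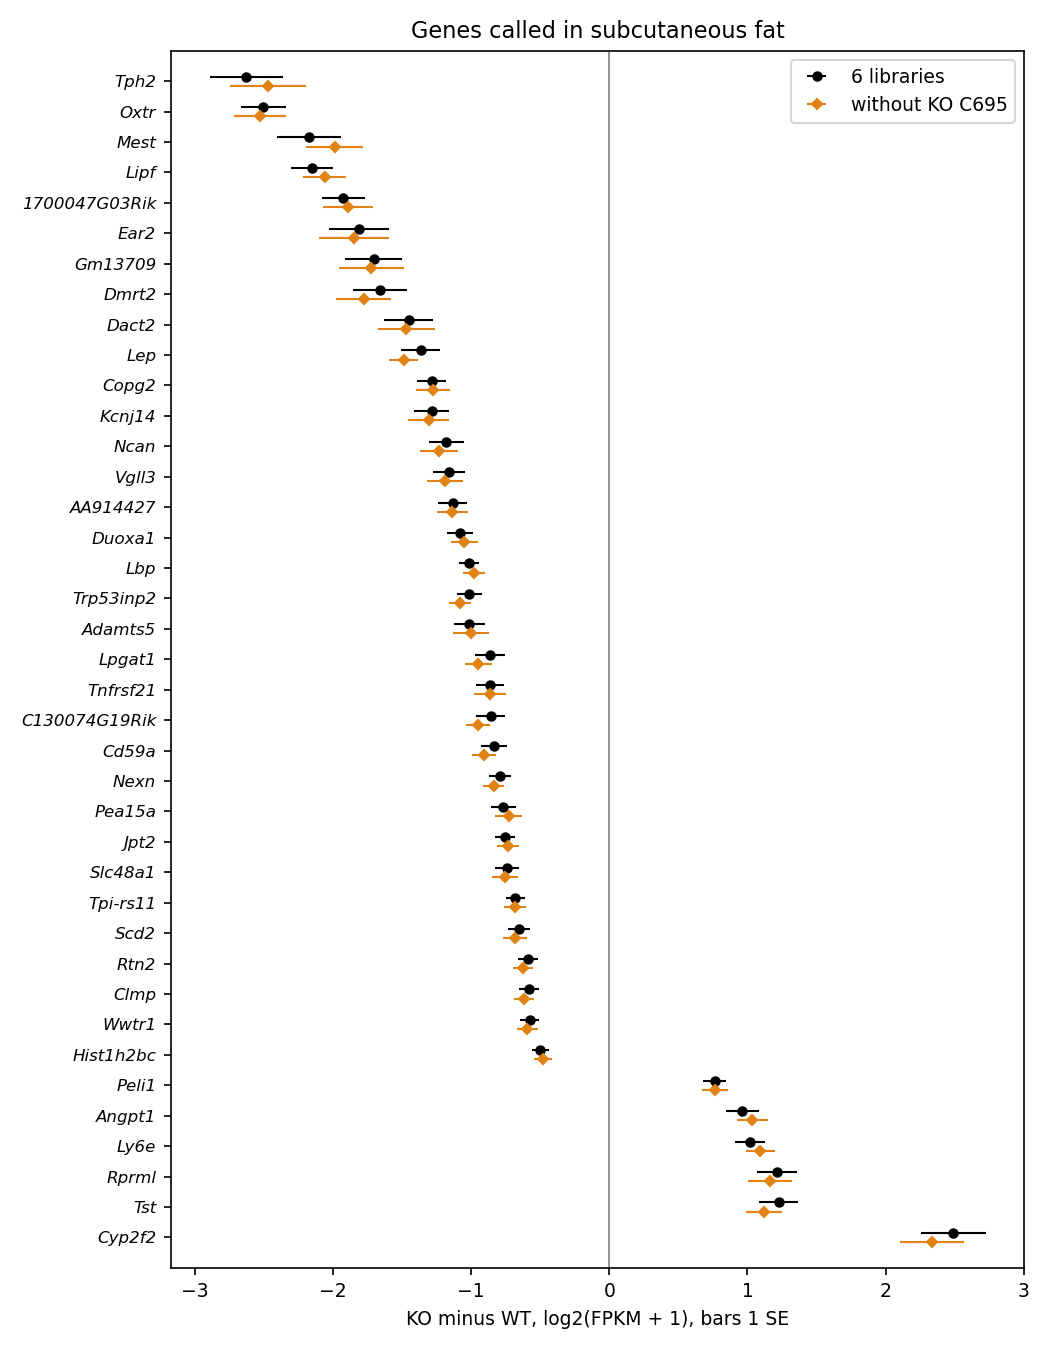
KO minus WT difference on the log2(FPKM + 1) scale (horizontal axis, bars 1 SE) for 39 of the 40 called genes, from all 6 libraries (black) and without KO C695 (orange). Values run from -2.63 for Tph2 to 2.49 for Cyp2f2, and the 2 sets lie close together.

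Genes of the mature adipocyte showed no common direction. Of 28 tested, 14 had higher and 14 lower values (median 0.00). In 6 libraries limma called 0 of them, and 0.317% of all genes. Without overlap, 2 were higher and 3 lower, where 11.1% and 13.4% of all genes were. Adrb3, the receptor through which noradrenaline starts lipolysis in mouse fat cells, had 134, 169 and 89.4 FPKM in KO and 36, 46.5 and 44.1 FPKM in WT libraries (1.57 ± 0.24; limma adjusted p = 0.0716). Its groups did not overlap. Adrb1, another beta-adrenergic receptor gene, had 0.70 (adjusted p = 0.198). Pck1, which makes glycerol phosphate for triglyceride, had 556, 693 and 651 FPKM in KO and 281, 265 and 381 FPKM in WT libraries (1.04 ± 0.16; limma adjusted p = 0.0716). The adipsin gene Cfd differed by 1.25 (adjusted p = 0.0971), while Adipoq and Pparg differed by -0.15 and -0.14 (adjusted p = 0.536 and 0.632). Of 48 respiratory chain genes tested, 37 had higher values (median 0.05). Ucp1, the heat-producing uncoupling protein gene, was at 0 to 0.18 FPKM in KO and 0.0755 to 0.137 FPKM in WT libraries, too low to test.

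**Figure D4:**
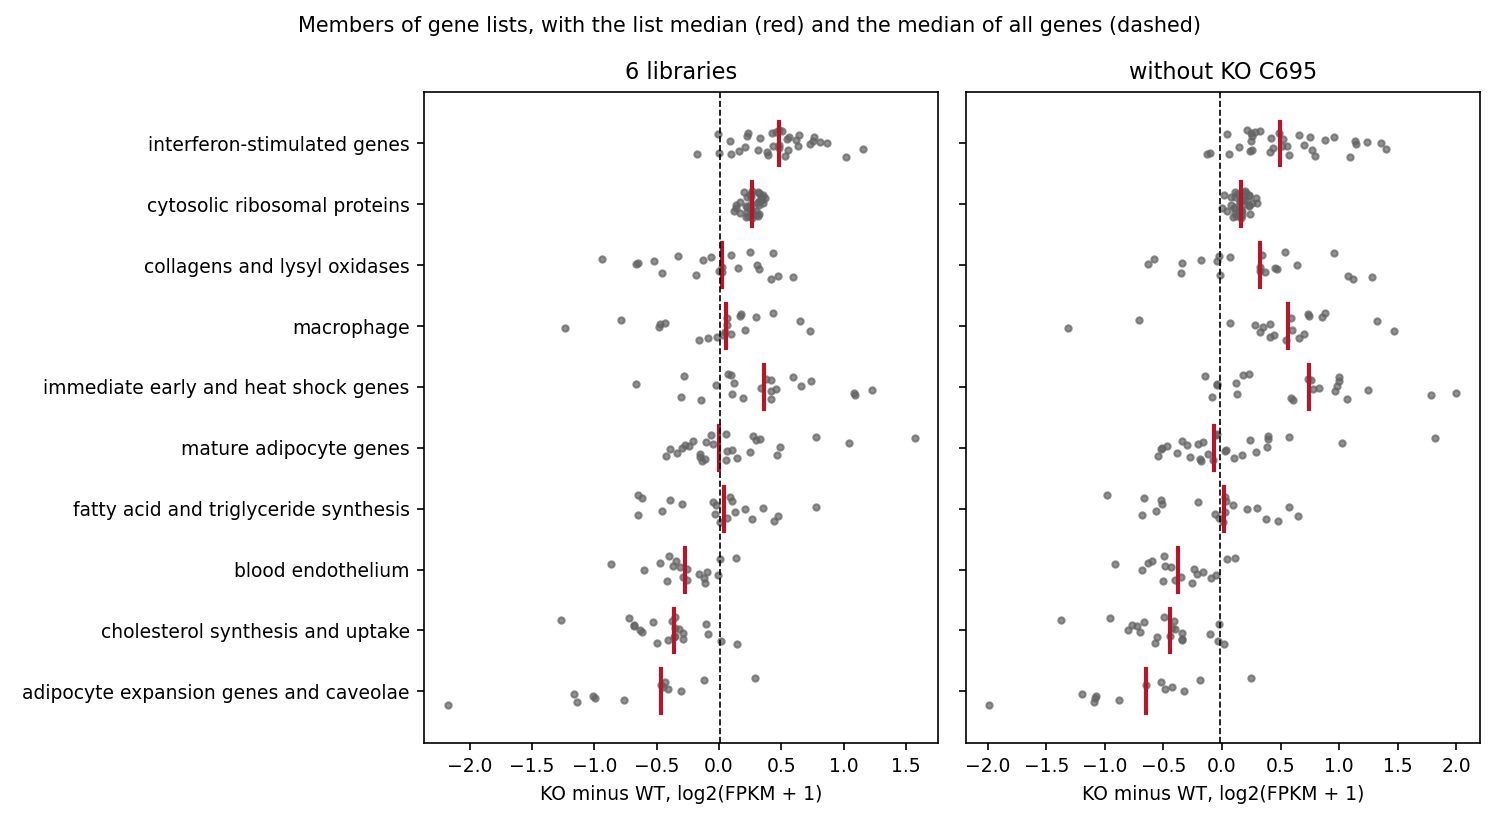
KO minus WT difference on the log2(FPKM + 1) scale (horizontal axes) for the tested members of 10 gene lists (grey points, 1 per gene), with the list median in red and the median of all genes as a dashed line, from 6 libraries (left) and without KO C695 (right). The interferon list has a median of 0.48 in 6 libraries and the expansion and caveolae list -0.46; macrophage and collagen medians are 0.06 and 0.02 in 6 libraries and 0.57 and 0.33 without KO C695.

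All 38 ribosomal protein genes tested had higher values in KO, with no overlap for 32 and a median of 0.26. Among all genes tested, 52.2% had a difference above 0, 11.1% were higher without overlap, and the median was 0.011. The ribosomal protein genes were 0.12 to 0.37 higher and none was called (0 by limma in 6 libraries and without C695). KO C695 had the highest level of 36 of 39 of these genes, and the median was 0.16 without it, with 37 of 38 higher. Rplp2 had 132, 151 and 159 FPKM in KO and 112, 114 and 118 FPKM in WT libraries (0.35, limma adjusted p = 0.134). Whether the lymphocyte transcripts of C695 take part in this difference was not tested.

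Without KO C695 the comparison called 142 of 12332 genes (1.15%), 51 higher (0.414%) and 91 lower (0.738%), and all 40 genes called in 6 libraries were among them with the same sign. The split was 45 higher and 50 lower with upper-quartile scaling and 54 and 67 with quantile scaling, but 17 higher and 3 lower with no filter on low values and 198 higher and 159 lower when KO C7 was also left out. Of the 102 further genes, 45 were higher and 57 lower. KO and WT levels did not overlap for 41.1% of genes in this smaller comparison, 17.4% higher and 23.7% lower. An unadjusted p under 0.05 was given to 22% of them, and 46.3% had a difference above 0. With 2 KO libraries these calls rest on C7 and C34, and leaving out WT C75 or C85 left 0 calls, WT C99 1, KO C34 0 and KO C7 357. Where C695 itself lay among the WT values, the call describes C7 and C34 only.

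Several collagen and complement genes and 1 of the listed macrophage markers were among the 45 further genes called higher. Col1a1, the main chain of type I collagen, had 386, 458 and 97.3 FPKM in KO C7, C34 and C695, against 222, 186 and 174 FPKM in WT libraries. C695 was the lowest of all 6 libraries, so the difference was 0.42 ± 0.57 in 6 libraries (limma adjusted p = 0.759) and 1.12 ± 0.13 without C695 (adjusted p = 0.0422), against 0.0094 without C34 and 0.13 without C7. Col3a1 and Col1a2 had 1.08 and 1.28 without C695 (adjusted p = 0.0448 and 0.0471) but 0.48 and 0.59 in 6 libraries (adjusted p = 0.678 and 0.652). Loxl2, which cross-links collagen, had 0.96 without C695 (adjusted p = 0.0475) and 0.43 in 6 libraries (adjusted p = 0.665). Of 21 collagen and lysyl oxidase genes, 4 were called higher without C695, against 0 in 6 libraries by limma. Without C695, 0.414% of all genes were called higher. The median of the 21 genes was 0.33 without C695, 0.02 in 6 libraries and -0.12 without C34, in which 13 of them were highest. Clec10a, a lectin of tissue macrophages, had 51.2, 68.7 and 13.8 FPKM in KO and 24.2, 24.7 and 20.5 FPKM in WT libraries, and was called without C695 (1.32; limma adjusted p = 0.0408) but not in 6 libraries (0.65; adjusted p = 0.609). Macrophage markers had a median of 0.06 in 6 libraries, 0.57 without C695 and -0.22 without C34. Their summed level was 1536, 1953 and 661 FPKM in KO C7, C34 and C695, against 1106 to 1348 FPKM in WT libraries. The complement genes C2, C1s1, C1ra and Cfp rose by 1.02, 0.52, 0.82 and 1.01 without C695 (adjusted p = 0.0408, 0.0448, 0.0469 and 0.0475), and had 0.82, 0.33, 0.52 and 0.55 in 6 libraries (adjusted p = 0.124, 0.384, 0.367 and 0.519). Gpx3, a secreted glutathione peroxidase gene, rose to 348 and 419.7 FPKM in KO C7 and C34, with 160 FPKM in C695, against 134, 174 and 137 FPKM in WT libraries (1.37 without C695, adjusted p = 0.0408; 0.95 in 6 libraries, adjusted p = 0.251).

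Further genes that fell without KO C695 included receptors, Wnt feedback genes and secreted hormones. Angptl8, a liver and fat hormone gene that inhibits lipoprotein lipase, had 4.05, 5.64 and 10.4 FPKM in KO and 29.8, 31.9 and 19.4 FPKM in WT libraries, with no overlap (-1.92 ± 0.33 in 6 libraries, adjusted p = 0.0852; -2.25 ± 0.24 without C695, limma adjusted p = 0.0408). The prostaglandin E2 receptor gene Ptger3 had 20.2, 13 and 20.9 FPKM in KO and 45.9, 45.1 and 41.2 FPKM in WT libraries (-1.38 without C695, limma adjusted p = 0.0448; -1.27 in 6 libraries, adjusted p = 0.061). The apelin gene Apln had 2.53, 3.6 and 5.93 FPKM in KO and 9.84, 9.17 and 8.01 FPKM in WT libraries (-1.31 without C695, limma adjusted p = 0.0408; -1.05 in 6 libraries, adjusted p = 0.125). The Wnt feedback genes Nkd1 and Axin2 fell by 1.41 and 1.07 (adjusted p = 0.0431 and 0.0408), and Sc5d of sterol synthesis by 0.67 (adjusted p = 0.0409). In 6 libraries they had -1.23, -0.83 and -0.53 (adjusted p = 0.0763, 0.15 and 0.132). Adrb3 and Adrb1, described above, rose by 1.82 and 0.95 (adjusted p = 0.0408 and 0.0409).

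The difference between the 2 depots was tested directly for the called genes. Of 13487 genes tested in 12 libraries, 139 (1.03%) had a KO difference that differed between scWAT and epWAT. It was more positive in scWAT for 0.586% and more negative for 0.445%. Among them were 17 of the 142 genes called in scWAT by either comparison. Those genes were picked by their scWAT values, which the contrast uses again, so their share cannot be set against the 1.03% of all genes. Lep had a KO minus WT difference that was -1.003 in scWAT relative to epWAT (SE 0.18; limma adjusted p = 0.042). Its epWAT levels were 1163, 1176 and 1133 FPKM in KO and 1292, 1624 and 1569.6 FPKM in WT mice, lower in each KO mouse but by less. Dact2, an antagonist of Wnt and TGF-beta signalling, had 2.14, 1.76 and 2.04 FPKM in KO scWAT, against 9.06, 5.27 and 7.56 FPKM in WT scWAT, but 2.47, 2.08 and 4.03 FPKM in KO epWAT, against 1.04, 1.18 and 2.59 FPKM in WT epWAT. Its contrast was -2.04 (adjusted p = 0.0388). The actin-binding gene Nexn was lower in KO scWAT, at 3.09, 3.12 and 3.5 FPKM against 6.21, 6.62 and 6.15 FPKM in WT scWAT, and higher in KO epWAT, at 4.88, 4.32 and 4.16 FPKM against 2.12, 2.71 and 3.22 FPKM in WT epWAT (contrast -1.37, adjusted p = 0.0196). A fixed term for each mouse (the replicate block) left 0 calls in limma, where 3483 genes had an unadjusted p under 0.05 and the smallest adjusted p was 0.0619. With the mouse as a random effect 393 passed, and limma-voom with no block called 79. Contrasts of Oxtr (-2.003) and Mest (-1.27) did not pass (adjusted p = 0.0946 and 0.142). KO epWAT spanned 12.7 to 55.9 FPKM of Oxtr and 71.6 to 203 FPKM of Mest.

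**Figure D5:**
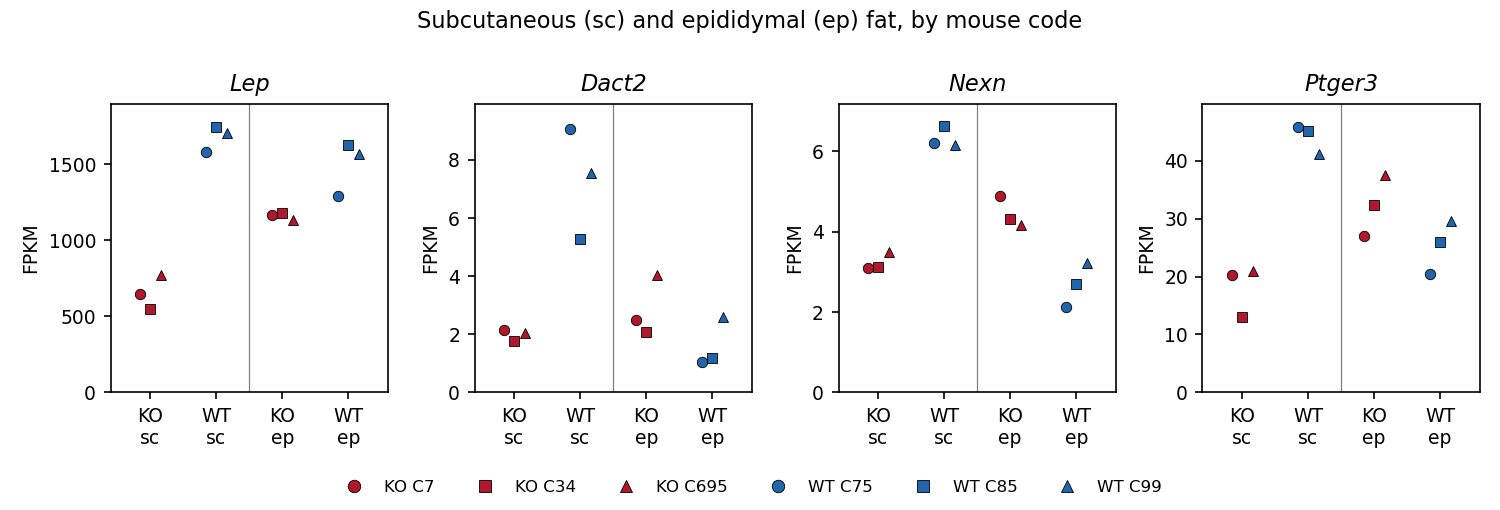
FPKM (vertical axes) of Lep, Dact2, Nexn and Ptger3 in subcutaneous (sc) and epididymal (ep) fat, KO left of WT in each depot, 1 point per mouse. All 4 genes are lower in KO than WT scWAT, while in epWAT Dact2 overlaps and Nexn is higher in every KO mouse.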

How the data were processed

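Gene expression was measured by RNA-seq of total RNA extracted with Trizol, per the labels' protocols. The authors deposited 1 FPKM value per Ensembl gene and library, for 32622 genes; no header names the unit, which the values gave. The submitters' processing notes name mm9, and the aligner, counting program, annotation and strand setting are not given in the sources used here. Multiplied by exon length in GENCODE M21 (GRCm38), values gave whole reads within 0.01 in all 12 libraries for 92.3% of genes, so coordinates are given only for GRCm38. That annotation held 32553 of the gene identifiers and lacked 69.

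Differences were tested by limma-trend on log2(FPKM + 1) for genes reaching 1 FPKM in 3 or more of the fitted libraries, at Benjamini-Hochberg adjusted p under 0.05. Lists are described by counts and medians. The members, the 48 gene lists and the repeat without KO C695 were chosen with earlier results of these data known. Named were the targeted gene, all genes called in 6 libraries, up to 20 genes each way called without KO C695, 27 adipose genes, list members that were called or had the 4 smallest p, and the 10 smallest p of the depot contrast; from these, examples are printed, and some genes are not reported here. Cd79a, Glycam1, the clock genes Dbp and Arntl, the promoter genes, some list members and some genes called without KO C695 were chosen after their values were seen.

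Each mouse code labels 1 library per depot, which was taken to mean 1 animal. Deviations from group means correlated between depots of the same mouse at -0.03 (C7), 0.17 (C34), 0.11 (C695), 0.36 (C75), 0.32 (C85) and 0.26 (C99). The highest correlation with another mouse of the group was 0.056 for C7, above its own, and 0.059 or less for the others. Alternatives were other filters, pseudocounts, scalings, moderation, the mouse as a block and leaving out each library; limma-voom on recovered reads (at least 10 in 3 libraries) and a depot contrast without 2 libraries were added after seeing the data. The procedure was tested on simulated data whose changes were larger than most of those called here. That test does not cover smaller changes. Promoter windows came from RefSeq (GRCm38.p6). Fits used limma 3.58.1 and statmod 1.5.0 in R 4.3.3; tables and plots used scipy 1.17.1, numpy 2.4.6, pandas 2.3.3 and matplotlib 3.10.9 in Python 3.11.15.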

Additional observations from a re-analysis of the deposited data

Results flagged for a closer look

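For 17 genes called in scWAT by either comparison, the KO difference itself differed between scWAT and epWAT (limma over 12 libraries, adjusted p 0.0196 to 0.0455). Of these, Ret, Ptger3, Unc119, Acyp2, Cyb5b, H2-Q10 and Plppr3 were called in scWAT only without KO C695, a library that the contrast includes. All were picked by their scWAT values, which the contrast uses again. The values are the KO minus WT log2 difference in scWAT minus that in epWAT. It was -2.04 for Dact2, -1.63 for the receptor tyrosine kinase gene Ret, -1.61 for Ptger3, -1.54 for 1700047G03Rik and -1.37 for Nexn. It was -1.06 for Unc119, -1.003 for Lep, -0.96 for Acyp2, -0.90 for C130074G19Rik and -0.87 for Ncan. It was -0.83 for Trp53inp2, -0.82 for Lpgat1, -0.69 for Cyb5b, -0.64 for Rtn2 and -0.48 for Jpt2. For 2 genes it was positive, at 1.80 for the class I gene H2-Q10, whose family has near-identical members, and 0.70 for Plppr3. H2-Q10 had 20.4, 26.8 and 14.4 FPKM in KO scWAT, against 7.22, 7.84 and 9.94 FPKM in WT scWAT, and 2.15, 1.06 and 1.20 FPKM in KO epWAT, against 2.56, 3.66 and 2.18 FPKM in WT epWAT. None of the 17 passed with the mouse as a fixed block, where the smallest adjusted p over all genes was 0.0619.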

How the results depend on the processing

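The 40 calls of the 6-library comparison became 11 with no filter, 72 at FPKM of at least 5, 23 with a pseudocount of 5, 22 with quantile scaling, 21 with robust moderation, 0 with a minimum log2 change of 0.5 and 6 with limma-voom on recovered reads. Of the 40 genes, 28 could be tested by limma-voom, of which 6 were called, with 0 higher in KO, and 28 kept their sign. Lep, Tst and Angpt1 were among the genes that limma-voom did not test. Sharing the spread over 12 libraries called 251, and the replicate block (mouse as a random effect over 12 libraries) 265, of which 35 were among the 40. Leaving out 1 library gave 0 to 142 calls. Without KO C695, 142 calls became 20 with no filter, 214 at FPKM of at least 5 and 0 with the minimum change; leaving out a further library gave 0 to 357, and where that left 1 KO library it was assumed to vary like the WT libraries. The depot contrast, 139 calls, gave 23 with no filter, 211 with upper-quartile scaling (71 higher, 140 lower), 202 with quantile scaling (77 and 125), 0 with the replicate block as a fixed effect, 393 as a random effect 79 with limma-voom, and 1477 when KO epWAT C7 and the KO C695 scWAT library were both left out; leaving out 1 library gave 0 to 928. The causes were not tested. None of the 40 genes changed sign in any alternative that tested it. Of the adipose genes, 5 with overlapping groups turned sign without KO C695, to 0.55 for Adgre1, 1.04 for Ccl2, 0.65 for Cd68, -0.078 for Cebpa and -0.022 for Fasn. Without KO C34 the same genes were at -0.54, -0.87, -0.54, 0.15 and 0.14. Without WT C75, Ccl2 turned to 0.31, Cd68 to 0.091 and Fasn to -0.0023, and Ccl2 to 0.092 with a pseudocount of 5. The targeted gene's difference was -0.224 to -0.130 FPKM when 1 library was left out. Depth limited it to at most 10 reads in a library.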
